A study of Mus musculus with 3 samples.

Results

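The acrosome genes described here were 35 genes of acrosome formation and content, taken by symbol from the gene lists of the libraries. All 35 were found among the 32285 genes measured. The study profiled single cells of adult mouse testis with the 10x Genomics 3′ assay, in which each messenger RNA molecule is counted once as a UMI (unique molecular identifier). Wildtype replicate 1 and wildtype replicate 2 came from 1 wildtype mouse each. The knockout library pooled cells of 2 mice labelled as conditional Tex10 knockout, so it gives 1 value per stage with no replicate check. All mice carry the strain label C57BL/6N. No Cre line or targeted exon is named in the labels, so the cells in which Tex10 was deleted are not known here. The question asked of the genes was in which germ cell stage each begins to be transcribed and reaches its highest level, in each library separately.

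The acrosome is a secretory vesicle that covers the front of the sperm nucleus. It is built in round spermatids from proacrosomal vesicles of the Golgi apparatus, which fuse, attach to the nuclear envelope and spread over it while the spermatid elongates. Its matrix holds proteases, hyaluronidases and zona-binding proteins that are released when the sperm meets the egg. Some of the messenger RNAs for these proteins are known to be made in spermatocytes, well before the organelle takes shape.

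The 2 main groups of members found below differed by whether they were on by the last stage named as spermatocytes or came on in the next stage. For each, the 250 bases before the gene's start are shown for 2 genes, chosen because RefSeq and GENCODE place their start at the same base. The sequences are from RefSeq on GRCm38.p6, written 5′ to 3′ on the gene's strand, and capitals mark a motif match. Dpy19l2 (chr9:24696294-24696543, minus strand) and Zpbp2 (chr11:98550847-98551096, plus strand) were on in spermatocytes. Acrv1 (chr9:36692970-36693219, plus strand) and Spam1 (chr6:24790938-24791187, plus strand) came on in that next stage, which also carried markers of dividing spermatocytes. The capitals are an AACNGNC match in Dpy19l2 and, in Acrv1, an ACAATGG match read on the other strand.
Dpy19l2: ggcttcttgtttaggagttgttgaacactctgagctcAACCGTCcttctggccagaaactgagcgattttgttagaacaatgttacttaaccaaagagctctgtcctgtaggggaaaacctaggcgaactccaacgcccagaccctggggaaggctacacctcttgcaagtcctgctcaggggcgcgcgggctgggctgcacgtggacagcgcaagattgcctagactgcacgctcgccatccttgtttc
Zpbp2: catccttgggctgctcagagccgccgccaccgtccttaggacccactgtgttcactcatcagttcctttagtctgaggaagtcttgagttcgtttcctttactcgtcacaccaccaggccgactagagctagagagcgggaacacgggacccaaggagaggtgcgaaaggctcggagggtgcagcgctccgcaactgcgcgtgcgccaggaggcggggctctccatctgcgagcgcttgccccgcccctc
Acrv1: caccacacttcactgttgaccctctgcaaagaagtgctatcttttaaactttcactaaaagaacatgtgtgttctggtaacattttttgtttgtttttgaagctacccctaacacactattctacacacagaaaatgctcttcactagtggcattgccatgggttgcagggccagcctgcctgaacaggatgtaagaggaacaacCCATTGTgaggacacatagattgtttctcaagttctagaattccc
Spam1: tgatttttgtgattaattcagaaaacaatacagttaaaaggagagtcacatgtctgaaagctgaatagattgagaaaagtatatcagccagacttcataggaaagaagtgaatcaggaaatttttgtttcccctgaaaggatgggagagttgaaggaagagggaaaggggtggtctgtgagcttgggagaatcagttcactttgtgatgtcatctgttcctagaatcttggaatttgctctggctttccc

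RefSeq windows of 300 bases, with 250 before and 50 after the start, were at hand for 31 of the 35 genes. No window was at hand for Acr, Pcsk4, Eqtn and Lyzl1. The MYB-type motif AACNGNC, searched on both strands, occurred in 6 of the 10 windows of genes on in spermatocytes, namely those of Acrbp, Crisp2, Dkkl1, Dpy19l2, Spata16 and Spink2. In 3 of these 6 the match lay before the start. It occurred in 2 of the 12 windows of genes that came on later, Lyzl6 and Spaca1, and in 32.8% of all 27025 windows. The motif TGACGTCA, which CREB and CREM factors bind, was in none of the windows of either group and in 1.88% of all windows. Its shorter form TGACGT was in the windows of Acrbp and Spesp1 and in 7.64% of all. Of the windows of the later group, the SOX-type motif ACAATGG was found in that of Acrv1 alone, against 3.71% of all windows. The RFX X-box motif and its shorter form GTTGCCAT were in none of the windows of either group, against 0.873 and 1.32% of all windows, and TATAAA was in those of Crisp2 and Spaca7, against 14.2%. These matches describe the letters in short windows and were not tested.

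UMIs were summed over the cells of each stage and library and are given as counts per 1000000 UMIs of that stage (CPM). A CPM is thus a share of the RNA counted in the stage, and counting at the 3′ end needs no correction for gene length. Where 3 values follow each other without names, they are those of both wildtype libraries, by number, and then of the knockout library. Intervals are exact Poisson intervals and cover counting error only. The onset of a gene is the first stage that holds at least 20% of its highest CPM in that library and at least 5 CPM.

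The libraries held 93418341, 96001773 and 147783171 UMIs in 9967, 10153 and 12918 barcodes. Of 26307 barcodes kept, 10795 fell into 12 germ cell clusters that serve as stages, with 140 to 654 cells per stage and library. The clusters were made without the 35 genes, and each is spermatogonium-like, spermatocyte-like or spermatid-like by its markers, a suffix left off from here on. In order they were spermatogonia, early spermatocytes I and II, pachytene I to III, a transition stage, round spermatids I and II and elongating spermatids I to III. The transition stage was given no cell type name, since it carried both markers of dividing spermatocytes such as Ccna1 and spermatid genes such as Tssk1. Among the marker lists, that of diplotene to dividing spermatocytes scored highest in it. Spermatocyte stages below are early spermatocytes I to pachytene III, so an onset at the transition may still lie in spermatocytes. In gene expression without the 35 genes, the cluster most like each stage was a neighbour in this order in 12 of 12 cases. The knockout library had the highest median UMI count per cell in 12 of 12 stages. Its Tex10 level lay below both wildtype libraries in 7 stages, between them in 4 and above both in 1, and in pachytene III it was 53.2 CPM against 62.9 and 61.2 CPM. The wildtype libraries shared 28 of the deposited barcodes with each other. The knockout library shared 30 with wildtype replicate 1 and 27 with wildtype replicate 2.

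Over both wildtype libraries, 12 of the 35 acrosome genes had their onset in a spermatocyte stage, against 18.2% of 10867 genes that reached 20 CPM. Of the 35, all but Zan reached it. These were Acr, Acrbp, Spink2, Pcsk4, Spesp1, Zpbp, Zpbp2, Crisp2, Dkkl1, Ica1l, Dpy19l2 and Spata16. A further 14 had their onset in the transition stage, against 6.91% of the genes. They were Zp3r, Spam1, Hyal5, Lyzl1, Lyzl4, Lyzl6, Spaca3, Spaca5, Zan, Acrv1, Spaca7, Spaca1, Eqtn and Tmem190. Onset came in round spermatids for 2, Spaca9 and Sppl2c, against 8.82%. Another 6, Gopc, Pick1, Tmf1, Vps54, Agfg1 and Csnk2a2, were already past the onset level in spermatogonia, against 61.6%. The onset of Gba2 differed between the wildtype libraries. In all, 33 of the 35 were on before round spermatids I, which was also true of 90.0% of the genes, so this count alone sets the acrosome genes little apart. Of the 35, 34 reached 20 CPM in their highest stage, and Zan did not.

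**Figure D1:**
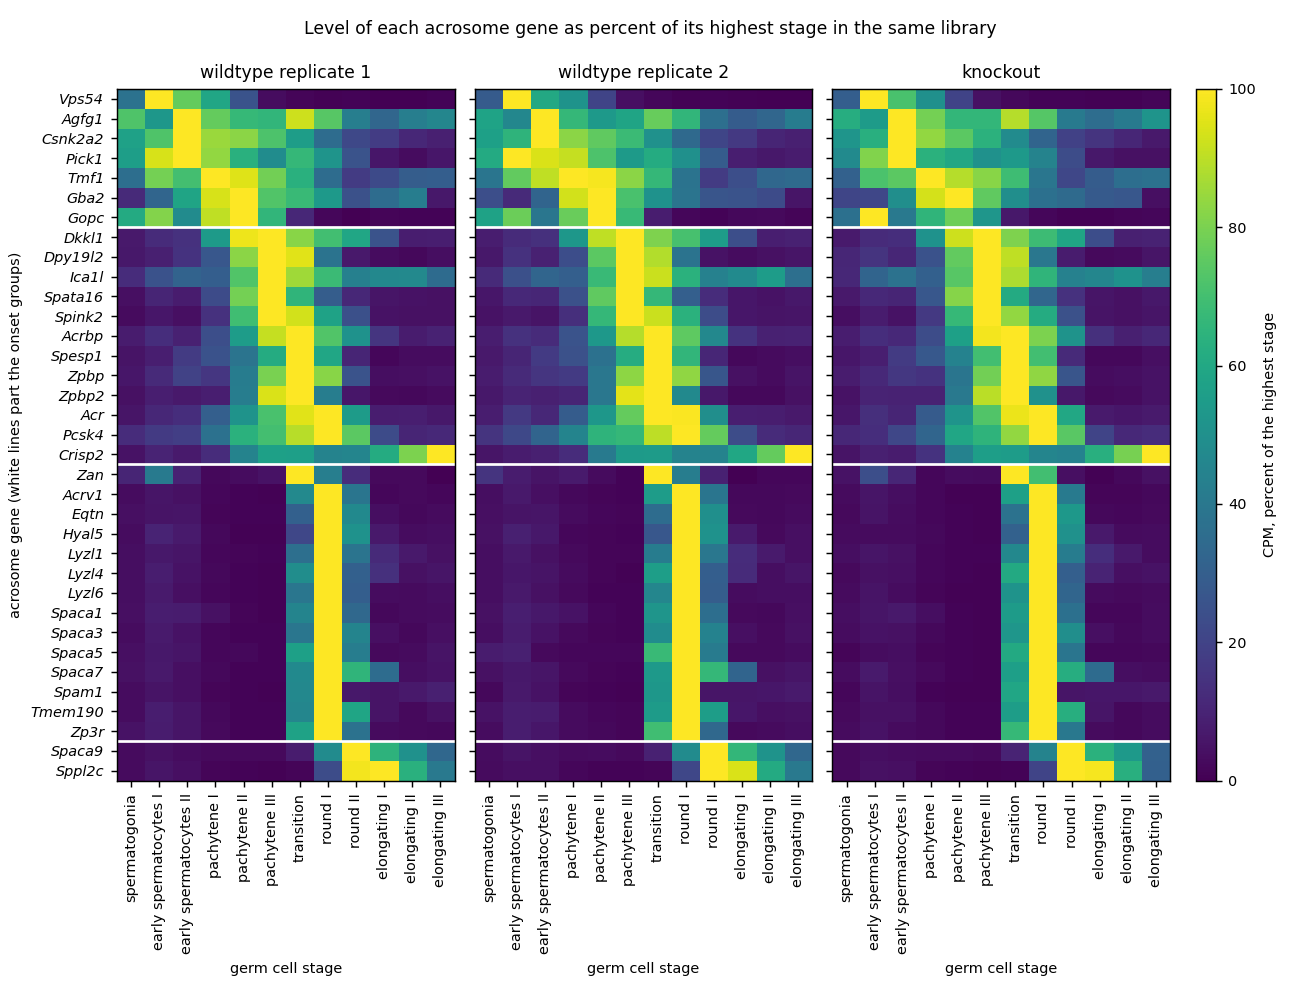
Each row is 1 of the 35 acrosome genes, each column 1 of 12 germ cell stages and each panel 1 library. Colour gives the CPM as percent of the gene's highest stage in that library. White lines part the genes on in spermatogonia (with Gba2), in spermatocytes, at the transition and in round spermatids, and the 3 panels show nearly the same picture, with the same peak stage for 31 of the 35 genes.

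The highest level fell in a round or elongating spermatid stage for 18 of the 35 genes, against 25.0% of the genes tested. Round spermatids I alone held the peak of 15, against 10.6%. The peak lay in the transition stage for 5 genes (7.56% of all) and in pachytene III for another 5 (10.4% of all). The remaining 7, all of the Golgi and vesicle group, peaked earlier on the CPM scale. A peak on the CPM scale is a peak of the share of RNA. Counted as UMIs per cell, all 12 genes of the spermatocyte group peaked in pachytene III in each library, the stage with the most UMIs per cell. Among the 14 genes of the transition group, 13 still peaked in round spermatids I in each library. Of the 7 with earlier CPM peaks, Pick1, Tmf1, Agfg1 and Csnk2a2 peaked per cell in pachytene III in each library. Gopc and Gba2 peaked per cell in pachytene II in wildtype replicate 1 and in pachytene III in the other libraries. Vps54 did so in pachytene I in each library.

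The proteases and their inhibitor did not start together. Spink2, a Kazal-type inhibitor of serine proteases, went from 314, 299 and 357 CPM in pachytene I to 2216, 2237 and 2158 CPM in pachytene III, its peak in each library, at 2226 ± 15.4 CPM (SD, n = 2) in wildtype. It was still at 1279, 1426 and 1324 CPM in round spermatids I, and at 101, 129 and 123 in elongating spermatids III. On the CPM scale the inhibitor thus peaked before Acr, the gene of the protease acrosin. Counted as UMIs per cell, both peaked in pachytene III in each library. Acr stood at 53.5, 51.8 and 48.2 CPM in pachytene I and 126, 135 and 122 CPM in pachytene III, then at 169, 177 and 162 CPM in the transition stage and 177, 176 and 167 CPM in round spermatids I. The peak of Acr was at the transition in wildtype replicate 2 and in round spermatids I in the other libraries, but the intervals of these stages overlapped. By elongating spermatids I it was down at 14.2, 14.6 and 12.3 CPM.

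Acrbp, whose protein binds proacrosin, peaked in the transition stage at 477, 492 and 469 CPM. It had passed its onset in pachytene I at 115, 127 and 109 and stood at 435, 437 and 461 CPM in pachytene III, so the 3 libraries followed the same course. Of the sequence of its 3′ end, 28.6% is shared with Gm44597, and a part of its counts cannot be assigned with certainty. Spesp1, a protein of the equatorial segment, also peaked at the transition, at 347, 356 and 297 CPM, after 213, 220.2 and 207 in pachytene III. The gene of the proprotein convertase Pcsk4 climbed slowly, from 34.96, 41.6 and 33.4 CPM in pachytene I to 93.8, 92.1 and 102 CPM in round spermatids I. Its onset fell in pachytene I, early spermatocytes I and early spermatocytes II of the respective libraries, which makes it 1 of only 2 members with unequal onset. Zp3r, a zona-binding protein of the acrosomal matrix listed with this group, was nearly silent in pachytene III at 1.04, 1.86 and 0.931 CPM and reached 69.1, 92.9 and 77.2 at the transition and 119.6, 134 and 115 in round spermatids I. The latest was Sppl2c, an intramembrane protease of the signal peptide peptidase family. It remained at 4.24, 3.85 and 2.68 CPM in the transition stage, was at 65.8, 64.3 and 62.1 CPM in round spermatids I and was highest in round spermatids II, at 277, 299.5 and 301 CPM, and elongating spermatids I, at 282, 283 and 297 CPM. The intervals of these 2 stages overlapped in each library, and its highest stage was the elongating one only in wildtype replicate 1.

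**Figure D2:**
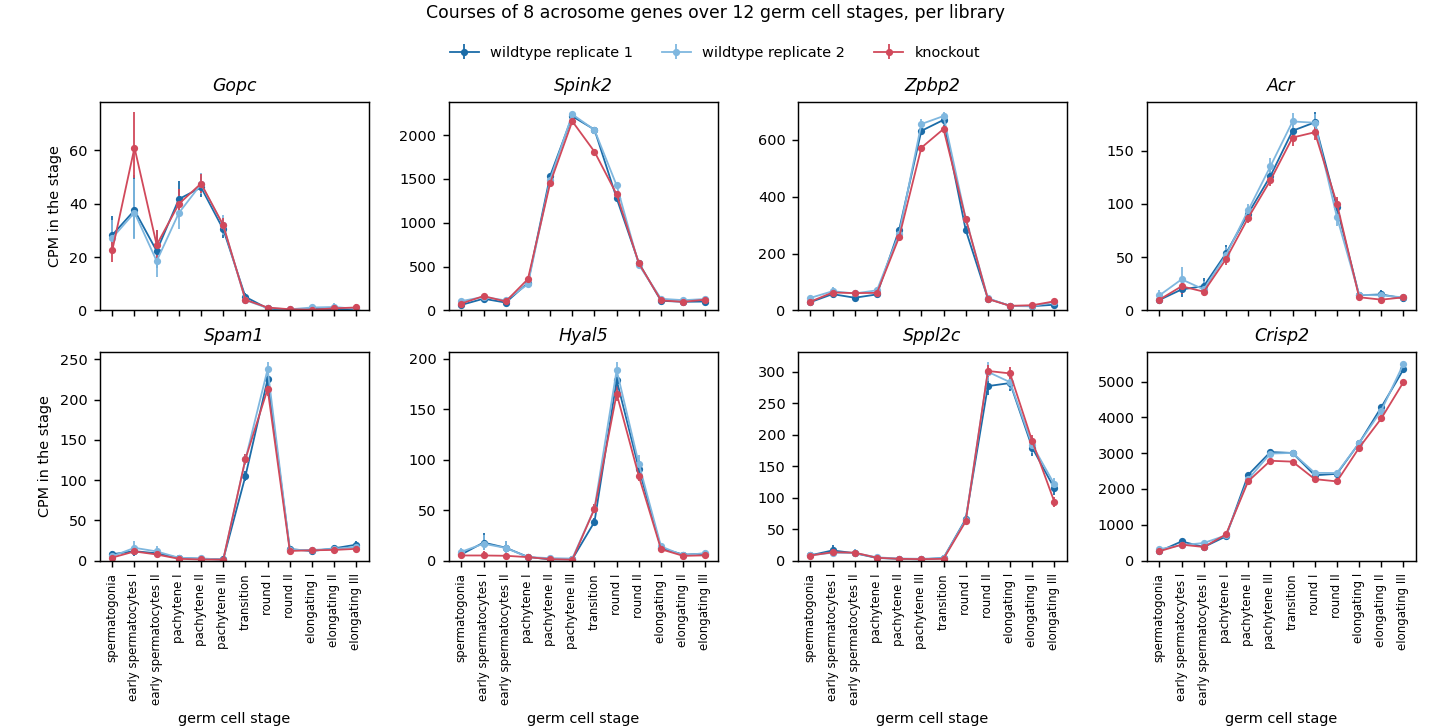
CPM (y axis, linear, from 0) of 8 acrosome genes over the 12 germ cell stages (x axis), with a line per library and bars for the 95% counting interval. Gopc ends before the spermatids, Spink2, Zpbp2 and Acr are on in pachytene spermatocytes, Spam1 and Hyal5 appear at the transition, Sppl2c in round spermatids, and Crisp2 has its highest value in elongating spermatids III at 5342, 5494 and 4988 CPM.

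All 7 hyaluronidase and lysozyme-like genes belonged to the transition group and peaked in round spermatids I in each library. Spam1 (PH-20) and Hyal5 encode hyaluronidases, enzymes that digest the matrix around the egg, and are neighbours on chromosome 6 at 24791188 to 24801048 and 24857997 to 24891958. Spam1 went from 1.38, 1.20 and 1.15 CPM in pachytene III to 105, 126 and 126 at the transition and 225, 238 and 213 in round spermatids I, and was back at 14.3, 13.2 and 11.9 CPM in round spermatids II. Hyal5 came later and lasted longer, with 38.4, 51.6 and 51.4 CPM at the transition, 179, 189 and 165 in round spermatids I and 91.3, 95.9 and 83.7 in round spermatids II. In round spermatids II the neighbours thus differed in every library, with Hyal5 near the middle of its course and Spam1 almost at its end.

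The lysozyme-like genes followed the same steps at different heights. Spaca3, a lysozyme-like protein of the acrosome, had 10.4, 9.52 and 7.12 CPM in pachytene III, 448, 494 and 558 at the transition, 1137, 1014 and 1066 in round spermatids I and 513, 448 and 528 in round spermatids II. The related X-linked gene Spaca5 had 0.863, 1.42 and 0.383 CPM in pachytene III, 46.8, 50.8 and 45.0 at the transition and 82.4, 74.8 and 74.2 in round spermatids I. Of the 3 paralogs Lyzl1, Lyzl4 and Lyzl6, none had 10 CPM in pachytene III in any library. In round spermatids I, Lyzl1 reached 822, 761 and 782 CPM. Lyzl4 reached 592, 550.1 and 618 CPM, and Lyzl6 795, 782 and 731 CPM, so that Lyzl4 was the lowest of them in each library. In elongating spermatids I the order was another one, the same in each library. Lyzl1 kept 97.7, 97.5 and 102 CPM and Lyzl4 81.2, 66.8 and 62.8 CPM, while Lyzl6 was lowest at 27.5, 26.8 and 20.3 CPM.

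The zona-binding and matrix genes had their onset in spermatocyte stages or at the transition. Zpbp and Zpbp2, paralogs whose proteins bind the zona pellucida, both peaked at the transition. Zpbp was at 482, 483 and 494 CPM there and Zpbp2 at 670.3, 684 and 638 CPM. Zpbp2 was near its peak sooner and left it sooner, with 632, 656 and 572 CPM in pachytene III and 41.0, 43.0 and 40.1 CPM in round spermatids II. Zpbp was at 385, 401 and 389.6 CPM in pachytene III and still at 123, 128 and 130.1 CPM in round spermatids II. Dkkl1, a secreted protein related to Dickkopf proteins, was the earliest of the group, with 540.3, 630.0 and 595 CPM in pachytene I and a peak of 990.5, 1192 and 1165 in pachytene III. Its wildtype libraries differed, at 1091 ± 143 CPM (SD, n = 2), and wildtype replicate 1 was the lowest library.

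Crisp2, a cysteine-rich secretory protein, had the highest level of the 35 genes. It passed its onset in pachytene II, at 2393, 2271 and 2215 CPM, reached a shoulder of 3032, 2989 and 2789 in pachytene III, dipped to 2382, 2451 and 2275 in round spermatids I and was highest at 5342, 5494 and 4988 CPM in elongating spermatids III. That late peak is one of the share of RNA. Counted as UMIs per cell, Crisp2 was highest in pachytene III, at 246, 188 and 280 UMIs. On the CPM scale no other member peaked in an elongating stage when the wildtype libraries were averaged. The matrix protein genes Acrv1 and Spaca7 were of the transition group. Acrv1 (SP-10) had 4.75, 5.91 and 3.45 CPM in pachytene III, 300.4, 362 and 352 at the transition and 637, 656 and 621 in round spermatids I. Spaca7 had 5.96, 7.22 and 4.16 CPM, then 340.4, 361 and 404 CPM, then 720.1, 668 and 716 CPM in the same stages, and both genes were alike up to there. They parted in elongating spermatids I, where Spaca7 was still at 256, 216 and 251 CPM and Acrv1 at 12.2, 13.8 and 9.10 CPM. Zan, which encodes the zona-binding protein zonadhesin, was the lowest member. Its peak at the transition was 10.9, 11.1 and 10.53 CPM, and 4.66, 4.69 and 7.33 CPM were left in round spermatids I.

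Of the genes listed here in the acrosomal membrane group, Spaca1, Eqtn and Tmem190 came on at the transition and Spaca9 later. Spaca1, a protein of the inner acrosomal membrane, had 8.98, 10.3 and 7.78 CPM in pachytene III, 558, 579 and 597 CPM at the transition and 1235, 1111 and 1087 CPM in round spermatids I. Eqtn (equatorin) had 2.24, 3.50 and 1.37 CPM, then 86.9, 97.7 and 106 CPM, then 283, 277 and 279 CPM in these stages. Tmem190, a small membrane protein, had 5.78, 7.001 and 4.44 CPM, then 286, 311 and 301 CPM, then 624, 566 and 541 CPM. In all libraries these 3 genes had less than 60% of their peak level at the transition. Spaca9 was at 52.7, 55.0 and 53.3 CPM in pachytene III and 167, 191 and 209 CPM at the transition, then at 1065, 1009 and 942 CPM in round spermatids I and 2207, 2093 and 2102 CPM in round spermatids II. Spaca9 differed from the others of this list by its length of stay, with 741, 701 and 655 CPM left in elongating spermatids III. Whether its protein lies in the membrane was not examined.

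The Golgi and vesicle genes mostly preceded the organelle, and their peaks are given here on the CPM scale. Vps54, a subunit of the GARP tethering complex, peaked in early spermatocytes I at 84.0, 90 and 83.6 CPM and was down at 2.68, 3.72 and 3.67 CPM by pachytene III. Gopc, a Golgi-associated PDZ protein needed for acrosome formation, had 46.1, 47.3 and 47.6 CPM in pachytene II and 5.05, 3.85 and 3.97 CPM at the transition. In round spermatids I, the cells in which the acrosome is built, Gopc was at 0.728, 0.853 and 1.07 CPM and Vps54 at 0.583, 0.683 and 0.741 CPM. Pick1, a PDZ protein that acts with Gopc in vesicle traffic, peaked in early spermatocytes II at 68.4, 66.8 and 79.8 CPM and kept 35.4, 35.6 and 35.7 CPM in round spermatids I. In wildtype replicate 2 the peak of Pick1 was 1 stage earlier, with overlapping intervals, and 26.6% of its 3′ end is shared with Gm49486. Agfg1 (Hrb), an Arf GTPase-activating protein, and Csnk2a2, a catalytic subunit of casein kinase 2, peaked in early spermatocytes II too. Agfg1 had 125, 157 and 134 CPM there and kept 92.2, 103 and 98.8 CPM in round spermatids I. Csnk2a2 had 321, 349.5 and 381 CPM and kept 113, 119 and 122 CPM. Unlike Gopc and Vps54, these 3 genes were thus still counted in round spermatids.

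Tmf1, a Golgi protein, was highest in pachytene I at 246, 262 and 275 CPM, and lowest in round spermatids II at 42.7, 45.6 and 58.7 CPM. Gba2, a glucosylceramidase, was low throughout and highest in pachytene II at 21.8, 27.7 and 26.5 CPM. Spata16, a Golgi protein of developing spermatids, and Dpy19l2, which anchors the acrosome to the nuclear envelope, both peaked in pachytene III. Spata16 had 356, 364 and 348 CPM there, 233, 242 and 213 CPM at the transition and 39.3, 46.6 and 49.5 CPM in round spermatids II. Dpy19l2 had 119, 123 and 118 CPM, then 114, 109 and 106 CPM, then 8.03, 6.08 and 8.78 CPM in the same stages. Ica1l, a partner of Pick1, peaked in pachytene III at 139, 138 and 138 CPM and kept 48.9, 50.5 and 59.0 CPM in elongating spermatids III. None of the 10 genes of this group had its peak in a spermatid stage.

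Free RNA from broken cells can enter any droplet. For transcripts particular to germ cells, its level was read in peritubular myoid cells, somatic cells that should lack them. There the genes of the transition group stood at 3.55 to 8.30% of their wildtype peak and those of the spermatocyte group at 4.18 to 14.03%, below the onset level. Of the 6 genes on in spermatogonia, 5 reached the 20% onset level in myoid cells too, at 55.9% for Gopc, 31.9% for Agfg1, 27.8% for Tmf1, 25.6% for Vps54 and 20.01% for Csnk2a2. Pick1 was at 11.8%, and Gba2, whose onset differed between the wildtype libraries, at 39.9%. These are genes of the general Golgi and kinase machinery, and whether myoid cells make them or hold them as free RNA was not tested. Gopc was at 28.3, 27.2 and 22.6 CPM in spermatogonia and 24.7, 27.5 and 12.8 CPM in myoid cells, and Vps54 at 31.6, 25.8 and 24.9 CPM and 31.8, 12.7 and 11.4 CPM. Tmf1 had 89.3, 102 and 85.2 CPM in spermatogonia and 77.6, 63.6 and 65.5 CPM in myoid cells. Agfg1 and Csnk2a2 stood further above the myoid level, Csnk2a2 with 183, 199 and 198 CPM against 60.0, 74.1 and 76.9 CPM. The onset of Gopc, Vps54 and Tmf1 in spermatogonia is therefore not clearly separate from the level in these somatic cells. For genes that myoid cells make themselves, the myoid level is no measure of free RNA. Within germ cells the transition genes were lower in pachytene III than in spermatogonia in each library: Spaca1 had 52.0, 51.0 and 40.3 CPM in spermatogonia and 8.98, 10.3 and 7.78 CPM in pachytene III, and 63.5, 55.1 and 65.5 CPM in myoid cells.

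Pachytene III separated the spermatocyte and the transition group with no gene between them. The 12 genes of the spermatocyte group had reached between 54.4 and 100% of their highest level there, counted over all 3 libraries. The 14 genes of the transition group had reached at most 4.74, 1.90 and 3.12%, with medians of 0.811, 1.01 and 0.592%. From pachytene III to the transition stage the CPM of these 14 multiplied by median factors of 54.9, 51.0 and 80.6. The lowest factors were 21.1, 26.2 and 32.0 and the highest 76.3, 104.5 and 117.3. In the spermatocyte group the same step had median factors of 1.03, 1.02 and 1.00. The grouping by onset and these percentages use the same CPM values, so the gap describes its width and is no separate evidence of it.

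**Figure D3:**
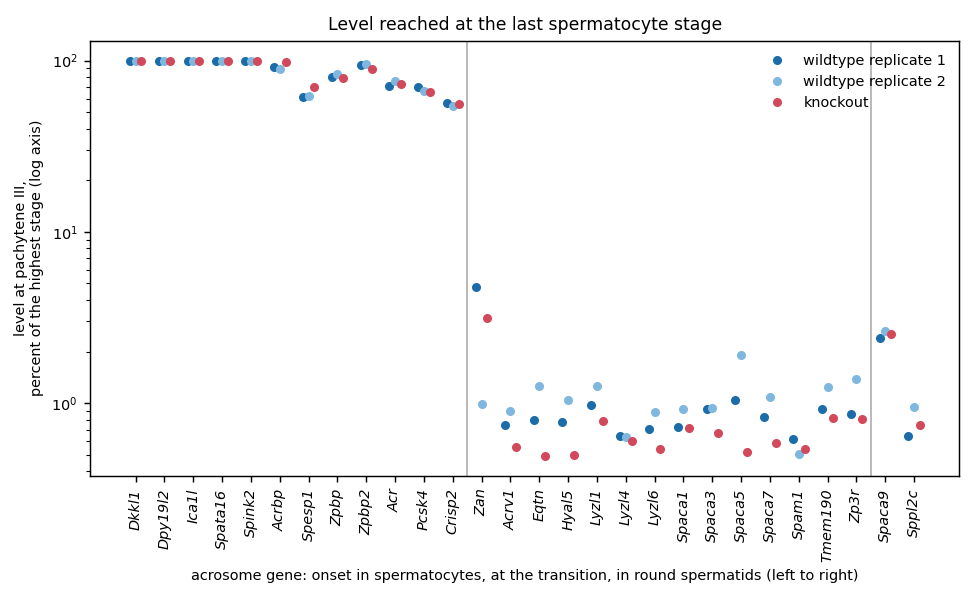
Level in pachytene III as percent of the highest stage (y axis, log scale) for the 28 acrosome genes on in spermatocytes, at the transition or in round spermatids (x axis, parted by grey lines), with 1 point per library. The left group lies between 54.4 and 100%, and each point of the other groups lies under 5%.

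Within the transition stage the order of the genes could be read more finely, by splitting each stage into an early and a late part along the line from the preceding to the following stage. In the early part Zan was at 92.6, 99.6 and 100% of its highest part, Spaca5 at 42.9, 47.3 and 36.0% and Zp3r at 35.5, 42.5 and 39.1%. Spam1 was at 22.1, 23.8 and 23.1%, Lyzl1 at 16.99, 17.8 and 15.7%, Eqtn at 15.1, 15.2 and 12.1% and Hyal5 at 6.46, 8.22 and 6.83%. The order of these listed genes held in both wildtype libraries, and in the knockout library Spaca5 and Zp3r changed places. The order of all 14 genes did not hold between the wildtype libraries. Lyzl6, at 21.8 and 24.9%, was below Spam1 in wildtype replicate 1 and above it in wildtype replicate 2. Spaca1 and Tmem190 changed places too, as did Lyzl4 and Spaca3. Onset lay in the early part for 10 of the 14 genes in each library and in the late part for Hyal5, Eqtn and Lyzl1, while Zan differed between libraries. The knockout library had 59.7% of its transition cells in the late part, against 42.2 and 50.1% in wildtype, so values of the whole transition stage mix the parts in unequal shares.

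The timing was nearly the same in the knockout library. The peak stage was equal in all 3 libraries for 31 of the 35 genes, against 81.1% of all genes, and the onset for 33, against 88.9%. The genes with an unequal peak were Acr, Pick1, Sppl2c and Gopc, and of these only Gopc had 1 peak stage in both wildtype libraries and another in the knockout library. Gopc was at 61.0 CPM (95% interval 49.5 to 74.4) in early spermatocytes I of the knockout library, its highest value there, and at 37.5 CPM (95% interval 27.0 to 50.7) and 36.7 CPM (95% interval 26.6 to 49.2) in wildtype. In pachytene II, the wildtype peak, the 3 libraries were at 46.1, 47.3 and 47.6 CPM. In the knockout library the intervals of these 2 stages overlapped, and in both wildtype libraries they did too, so the peak stage of Gopc is not resolved in any library.

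No acrosome gene passed the size rule for a knockout difference in any stage. The rule asks for a ratio of at least 2-fold against each wildtype library with 1 CPM added, in the same direction, at least 2 times the wildtype ratio on the log2 scale, and 20 CPM in at least 1 library. It could be applied to 34 of the 35 genes, and 0 passed. Of 11319 genes, 1.97% passed in at least 1 stage, with 0.972% higher and 0.998% lower. With 1 knockout library there is no test, and 0 of 34 lies near that background. Over 283 pairs of a gene and a stage, the median size of the log2 ratio was 0.12 and 0.11 between the knockout library and each wildtype library, and 0.11 between the wildtype libraries. The knockout value was above both wildtype values in 84 pairs, or 29.7%, and below both in 110, or 38.9%. Over the 63505 such pairs of all genes it was above both in 40.8% and below both in 32.6%. More acrosome genes lay below both than above both in 9 of 12 stages, and over all genes this was so in 1 of 12. The pairs of 1 gene or 1 stage share cells, and the groups hold 1 knockout and 2 wildtype libraries.

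**Figure D4:**
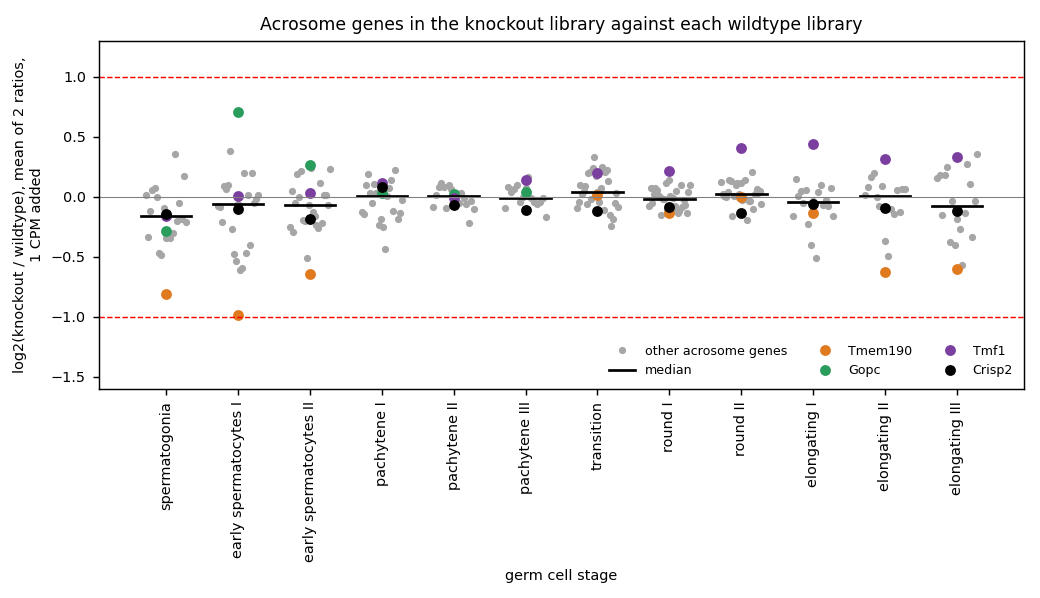
Log2 ratio of the knockout library to wildtype (y axis, mean of the 2 ratios, 1 CPM added) for acrosome genes with at least 20 CPM in a library, by germ cell stage (x axis). Points are genes, black bars are medians and dashed lines mark the 2-fold limit, which no gene passes. Tmem190 in early spermatocytes I and in spermatogonia lies nearest to it, then Gopc in early spermatocytes I.

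The genes nearest to the limit were low where they differed. Tmem190 was at 50.9, 45.8 and 23.9 CPM in early spermatocytes I, from 57, 55 and 38 UMIs, with log2 ratios of -1.06 and -0.91 against the wildtype libraries. The knockout value was the lowest. The gene is far below its peak in that stage, and myoid cells held 29.99, 46.6 and 34.2 CPM. In round spermatids I, its peak, the values were 624, 566 and 541 CPM. In that early stage 8 of the 14 genes of the transition group reached 20 CPM in at least 1 library, and 7 of these 8 were below both wildtype libraries, against 27.7% of 7286 genes that reached it. In spermatogonia it was also 7 of 8, against 35.8% of 7385 genes. The exception was Spaca7 in early spermatocytes I and Lyzl1 in spermatogonia. The summed level of all 14 was 539.7, 505.8 and 377.4 CPM in early spermatocytes I and 285.2, 287.6 and 216.5 CPM in spermatogonia, lowest in the knockout library in both stages. The pattern was not confined to early stages. In elongating spermatids III, 6 of the 7 genes of the group that reached 20 CPM were below both, against 33.2% of 2742 genes. The summed level of all 14 there was 303, 300.6 and 241.9 CPM. In myoid cells, with no minimum level, 2 of the 14 were below both, and the summed level of 389.9 CPM in the knockout library lay between 384.6 and 400.4 CPM. The part of free RNA in these early and late differences was not tested.

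Tmf1 was higher in the knockout library than in both wildtype libraries in 8 of 12 stages, and most so late. In round spermatids II it was at 42.7, 45.6 and 58.7 CPM, with log2 ratios of 0.45 and 0.36, and in elongating spermatids I at 55.3, 62.5 and 80.2 CPM, with 0.53 and 0.35. The wildtype libraries differed by 0.17 there. In these 2 stages the knockout interval lay above both wildtype intervals. Csnk2a2 was above both in 9 of 12 stages, by at most 0.19 on the log2 scale as the mean of both ratios. Crisp2 was below both in 8 of 12 stages, each with intervals that did not overlap, but by little: in elongating spermatids III the log2 ratios were -0.10 and -0.14. For so abundant a gene counting error is small, and the spread between mice is known only from the wildtype pair. In the transition stage Lyzl4 was highest in the knockout library, at 289.8, 308 and 376 CPM with log2 ratios of 0.37 and 0.28. With both parts of the stage given equal weight the mean ratio was 0.13 in place of 0.33.

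Besides these 35 genes, 28 further genes of acrosome biology were listed from general knowledge, of which 27 were found by symbol. The list was made with earlier results of these data known, so it is no independent check of the groups above. The 9 content and membrane genes of that list had their onset at the transition in 7 cases, among them Izumo1, the sperm ligand for egg fusion, and in round spermatids in 2. The share over all genes was 6.91% for the transition and 8.82% for round spermatids or later. Each of the 9 peaked in round spermatids, against 25.0% of all genes with a peak in a round or elongating stage. The 6 genes of the anchoring of the acrosome to the nucleus came on at the transition in 4 cases and in round spermatids in 2. Of the 12 traffic genes found, 10 reached 20 CPM. Of these 10, 6 were on in spermatogonia, near the 61.6% of all genes, and 3 in spermatocyte stages, against 18.2%. Of the 25 genes of the list that reached 20 CPM, 0 were higher and 0 lower in the knockout library by the size rule, which 1.97% of all genes passed. The peak stage was the same in the 3 libraries for 23 of the 25, against 81.1% of all genes.

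Acrosome transcripts were not confined to the 12 stages. A cluster of 33 cells led by Pxt1, with 9, 15 and 9 cells per library, was too small to serve as a stage, yet 7 of the 34 acrosome genes that reached 20 CPM were higher there than in each of the 12 stages in each library, against 7.83% of 11449 genes. They were Acr, Acrbp, Zpbp, Zpbp2, Spink2, Dkkl1 and Ica1l, all of the spermatocyte group. For 5 of the 7, all but Zpbp and Ica1l, the interval also lay above that of each stage in each library, against 3.15% of genes. Acrbp had 1180.0, 1331 and 1335 CPM and Spink2 3653, 3880.3 and 3827 CPM in these cells. The peak stages given above are peaks among the stages only.

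Barcodes with few UMIs, 57.4, 43.1 and 66.4% of those kept, were left out of the stages. A low-UMI cluster with Spam1, Zp3r, Spaca5 and Spaca1 among its leading genes, of 674, 444 and 438 barcodes, held 11 of the 35 genes at 2-fold or more above their highest stage in each library, against 3.53% of 11759 genes. Spam1 was at 1009, 1013 and 913 CPM there, which was 4.48, 4.26 and 4.28 times its highest stage. Spaca1 was at 4410.3, 3833 and 3592 CPM and Zan at 66.0, 76.3 and 83.4 CPM, the latter 6.05, 6.86 and 7.92 times its highest stage. The others were Acrbp, Acrv1, Spaca5, Spaca7, Zp3r, Pick1, Tmem190 and Lyzl1. Together the 35 genes made up 2.85, 2.77 and 2.72% of the UMIs of these barcodes, and 1.503, 1.503 and 1.463% in round spermatids I, so the 3 libraries were alike in both. The clustering did not use the 35 genes, but it used other genes of the same cells. Spam1, Zp3r, Spaca5 and Spaca1, by which the cluster is described, are also among the 11. The count and the share over all genes thus describe the cluster and are no separate support. In a low-UMI cluster led by Cd46 and other genes, 7 of the 35 genes were so placed, against 5.53% of genes, and in one led by Iqca1l and other genes 2 were, against 4.69%. What these barcodes are was not tested.

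**Figure D5:**
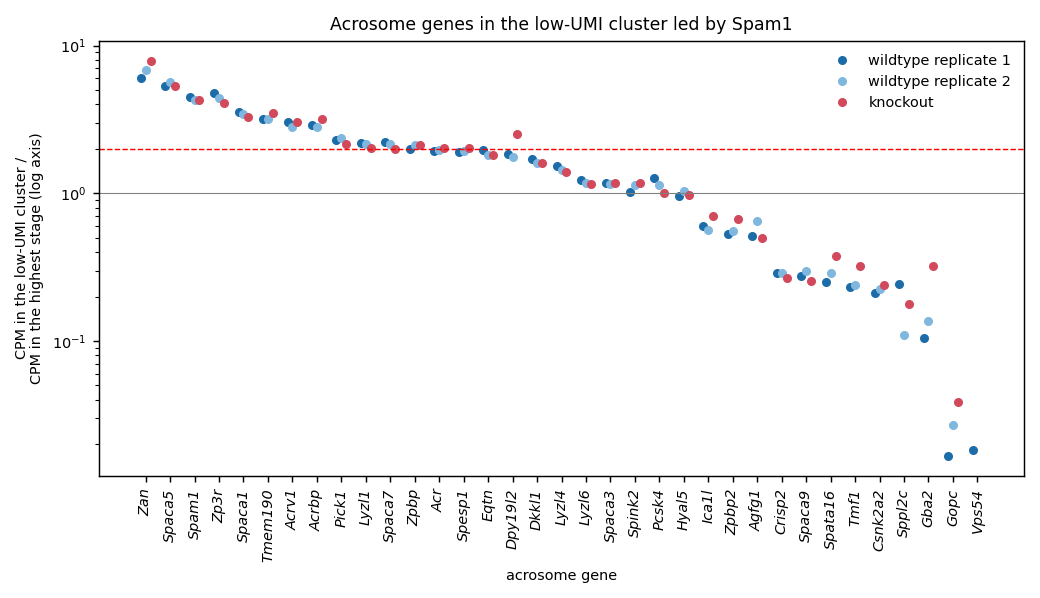
CPM in the low-UMI cluster led by Spam1 and other genes divided by the CPM of the gene's highest stage (y axis, log scale) for the 35 acrosome genes (x axis), with 1 point per library and values of 0 not drawn. The dashed line marks 2-fold. Zan and Spaca5 lie highest, then Zp3r and Spam1, and Gopc and Vps54 lowest.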

How the data were processed

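The deposited files hold raw UMI counts per gene and barcode for each library. Per the submitters' processing notes, Cell Ranger 4.0.0, Seurat 4.0.5 and the mm10 build were used, and whether counting used the strand is not given in the sources used here. Barcodes with at least 1000 UMIs, 500 genes and at most 10% mitochondrial UMIs were kept. The automatic Scrublet threshold marked at most 1 barcode of a library, so the 8% highest scores were left out instead. Without the 35 genes and without batch correction, 2000 variable genes, 30 components and 15 neighbours were clustered with Leiden at resolution 1 (scanpy 1.11.5, leidenalg 0.10.2, igraph 0.11.9). Clusters were named and ordered by fixed markers. The choice of clusters as stages, and the limit of 3 times the lowest deposited UMI total under which a cluster's median counted as low-UMI, were made after seeing the data. UMIs were summed per library and stage. Each stage is 1 cluster.

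With 1 knockout library no test was possible, and cells were not used as replicates. Genes are named by a fixed rule: all 35 with onset and peak, and in more detail the 5 highest, the earliest and latest 3 of each role group, those with unequal peaks, and paralogs. Values are printed at the stages that set onset and peak. The size rule was checked on simulated counts, with changes larger than its limit, genes above its minimum level and counting error alone. That check does not cover changes near the 2-fold limit or differences between mice. The 35 genes, the further list and the markers were chosen with earlier results of these data known. Positions are from GENCODE M21 on GRCm38. Overlaps at the 3′ end were counted in words of 31 bases over the last 500 bases of transcripts, and 5 of the 35 genes share some. The alternatives concerned scaling, pseudocount, filters, doublets, onset level, stage parts, free RNA and each wildtype library.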

Additional observations from a re-analysis of the deposited data

Results flagged for a closer look

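Low-UMI barcodes, which the stages leave out, held acrosome transcripts at high shares of their RNA. In the cluster with Spam1 among its leading genes, 11 of the 35 genes were at least 2-fold above their highest stage in each library, against 3.53% of 11759 genes. Leading genes of the cluster, Spam1 among them, are part of these 11. In the cluster led by Cd46 and other genes, with 273, 260 and 176 barcodes, the same was true of 7 genes, against 5.53% of 11886 genes. They were Acrv1, Spaca1, Spaca5, Zp3r, Tmem190, Zan and Pcsk4. Tmem190 was at 2737, 2123 and 1941 CPM there, 4.38, 3.75 and 3.59 times its highest stage. Spaca5 was at 439.8, 387 and 308 CPM, 5.33, 5.17 and 4.15 times its highest stage, and the 3 libraries lay in a similar range. In the cluster led by Iqca1l and other genes, with 31, 25 and 67 barcodes, it was true of 2 genes, Pick1 and Zan, against 4.69% of 12925 genes. Pick1 was at 274, 331 and 299.7 CPM in these barcodes. In the low-UMI clusters led by Tsga8 and by Tssk6, 0 of 34 genes were so placed, and 0 and 45 of all genes were. The remaining low-UMI clusters were not scored.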

How the results depend on the processing

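With 18 in the main setting, the number of genes peaking in a spermatid stage was 15 with UMIs per cell and 17 to 18 when each wildtype library was left out in turn. Onset before round spermatids I held for 33 genes, for 32 with UMIs per cell or with the myoid level subtracted, and for 22 with onset at 50% of the peak. Onset in a spermatocyte stage held for 12, for 10 at the 10% onset level, for 15 at 50%, for 16 with the myoid level subtracted, for 18 with UMIs per cell, and for 12 to 13 with each wildtype library left out in turn. The same peak stage in the 3 libraries held for 27 to 33 genes.

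The 0 genes past the knockout size rule became 2 with UMIs per cell (Gopc in early spermatocytes I, Tmf1 in round spermatids II and elongating spermatids I, all higher), 1 with at least 2000 UMIs per barcode (Tmem190, lower), 3 with the myoid level subtracted (Gopc higher, Spaca1 and Dkkl1 lower, in early spermatocytes), 2 with a 1.5-fold limit (Gopc and Tmem190) and 1 without the CPM minimum (Hyal5, lower in early spermatocytes I and II). With each wildtype library left out in turn it was 0 to 1, the 1 being Tmem190 without wildtype replicate 2. The cause of these changes was not tested. Among 24 named log2 ratios and 216 settings of them, 9 changed sign: with UMIs per cell, Spaca1 to 0.21 in pachytene I and 0.13 in elongating spermatids I, Spaca5 to 0.55 in round spermatids II, Hyal5 to 0.49 in round spermatids I, Zpbp2 to 0.31 in pachytene III, Spesp1 to 0.27 at the transition, Tmem190 to 0.018 in elongating spermatids II and Vps54 to 0.088 in pachytene II, and with the myoid level subtracted Vps54 to 0.76. The knockout library had more UMIs per cell in each stage, which raises its values on that scale. Subtraction of the myoid level, stage parts and the spermatocyte onset count were chosen after seeing the data. Whether myoid cells make Gopc and Vps54 themselves was not tested, so for these genes the subtraction may remove more than free RNA. Equal weights for the clusters of a stage could not differ from the main setting, since each stage is 1 cluster, and equal weights for the 2 parts of a stage were used instead. No paired analysis was possible because the knockout group has 1 library, and it shares only the number 1 with a wildtype library.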
